A study of Mus musculus with 8 samples.

Results

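The centrosomal Cep family and a set of microcephaly genes were followed in cortical RNA of E18.5 mouse embryos. The genes were taken by symbol: every gene named Cep followed by a number (with l or l and a digit allowed at the end), except Cep290, Cep164 and Cep41, gave 31 genes, and Aspm, Wdr62, Cdk5rap2, Cenpj, Stil, Mcph1, Pcnt, Plk4 and Sass6 were added, for 40 of the 55487 genes in the deposited tables. The 4 control libraries came from cortex with floxed Upf2 alleles and no Cre listed, with genotype Upf2 fl/fl in controls 1, 3 and 4 and Upf2 fl/+ in control 2. The 4 mutants, called Upf2cKO, were Upf2 fl/fl with Emx1-Cre, so that all 8 libraries carry at least 1 floxed allele. Emx1-Cre acts in dorsal forebrain progenitors and their excitatory neurons and glia, and leaves interneurons, microglia and vessels of the dissected cortex unrecombined. Upf2 encodes a core factor of nonsense-mediated decay (NMD), which degrades transcripts with premature stop codons.

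The centrosome is built around a pair of centrioles embedded in pericentriolar material, from which microtubules grow. Before division each centriole templates a single new one: the kinase Plk4, held on the parent centriole by the scaffolds Cep152 and Cep192, acts with Stil and Sass6 to lay down a cartwheel, and Cenpj and Cep120 then lengthen the wall. In the embryonic cortex radial glia depend on this cycle for spindle orientation, for mitoses at the ventricular surface and for the cilium that the older centriole carries, and inherited loss of many of these proteins in humans causes primary microcephaly.

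An estimated 96550000 to 155900000 reads per library were assigned to genes, and 1 read was worth 0.00641 to 0.0104 CPM (read counts scaled to the total of each library). The least covered of the 40 genes in any library, Wdr62 in control 1, still stood for about 433 reads. Upf2 itself was higher in the libraries labelled Upf2cKO, at 143 ± 7.84 CPM against 61.8 ± 4.58 CPM in controls (SD, n = 4 each), and such a total over the whole gene is no check of the deletion or of the labels. Calls in lists of marker genes stand beside 36.7% of all genes tested called higher and 26.3% called lower. Among these lists, 8 of 10 radial glia genes and 6 of 8 genes of cycling cells were lower and 0 higher. Interneuron genes were higher in 6 of 6 and microglial genes in 3 of 5, and 3 of 4 endothelial genes were lower. Of 5 intermediate progenitor genes 1 was higher and 2 lower, with Eomes at 94.2 ± 10.8 CPM in controls and 47.1 ± 6.08 CPM in Upf2cKO and Gadd45g at 9.55 ± 0.798 and 34.6 ± 2.06 CPM. Of 8 excitatory neuron genes, the recombined lineage, 3 were higher and 5 lower. None of these 8 was at 0 in all libraries, and they had a summed level of 2488 to 2727 CPM in controls and 1987 to 2276 CPM in Upf2cKO. In bulk tissue, fewer cells of a type and less RNA per cell cannot be told apart. The labels do not say whether embryos shared a litter, and p-values here rest on the spread among 8 samples alone, which may be technical.

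Centrosomal genes were mostly higher in the mutant cortex. All 40 passed the filter on low values (at least 0.5 CPM in at least 4 libraries), and 23 were higher and 6 lower at an adjusted p under 0.05 (limma on log2(CPM + 0.1), adjusted over the 16573 genes tested). Of all genes tested, 63.0% were called, 36.7% as higher and 26.3% as lower, so the 29 called of 40 stand close to the background in number and lean further towards higher values. The median log2 change was 0.32 over the 40 genes and 0.04 over all genes tested. The groups' values did not overlap for 27 of the 40 genes, where 56.6% of all genes tested did not overlap. A rise of at least 2-fold was called for 7 of the 40, against 9.74% of all genes tested. No fall reached 2-fold, and such falls were rare in general, called for 137 of the 16573 genes tested. The 7 were Cep152, Cep250, Cep112, Wdr62, Cep70, Cep162 and Cdk5rap2. Under 17 alternative settings, among them median-of-ratios rescaling (each library scaled by the median ratio of its genes to their mean over libraries), 26 of the 29 calls held, and those of Aspm, Cep78 and Cep85 were lost under some. Folds on this scale understate the change of genes of low level.

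**Figure D1:**
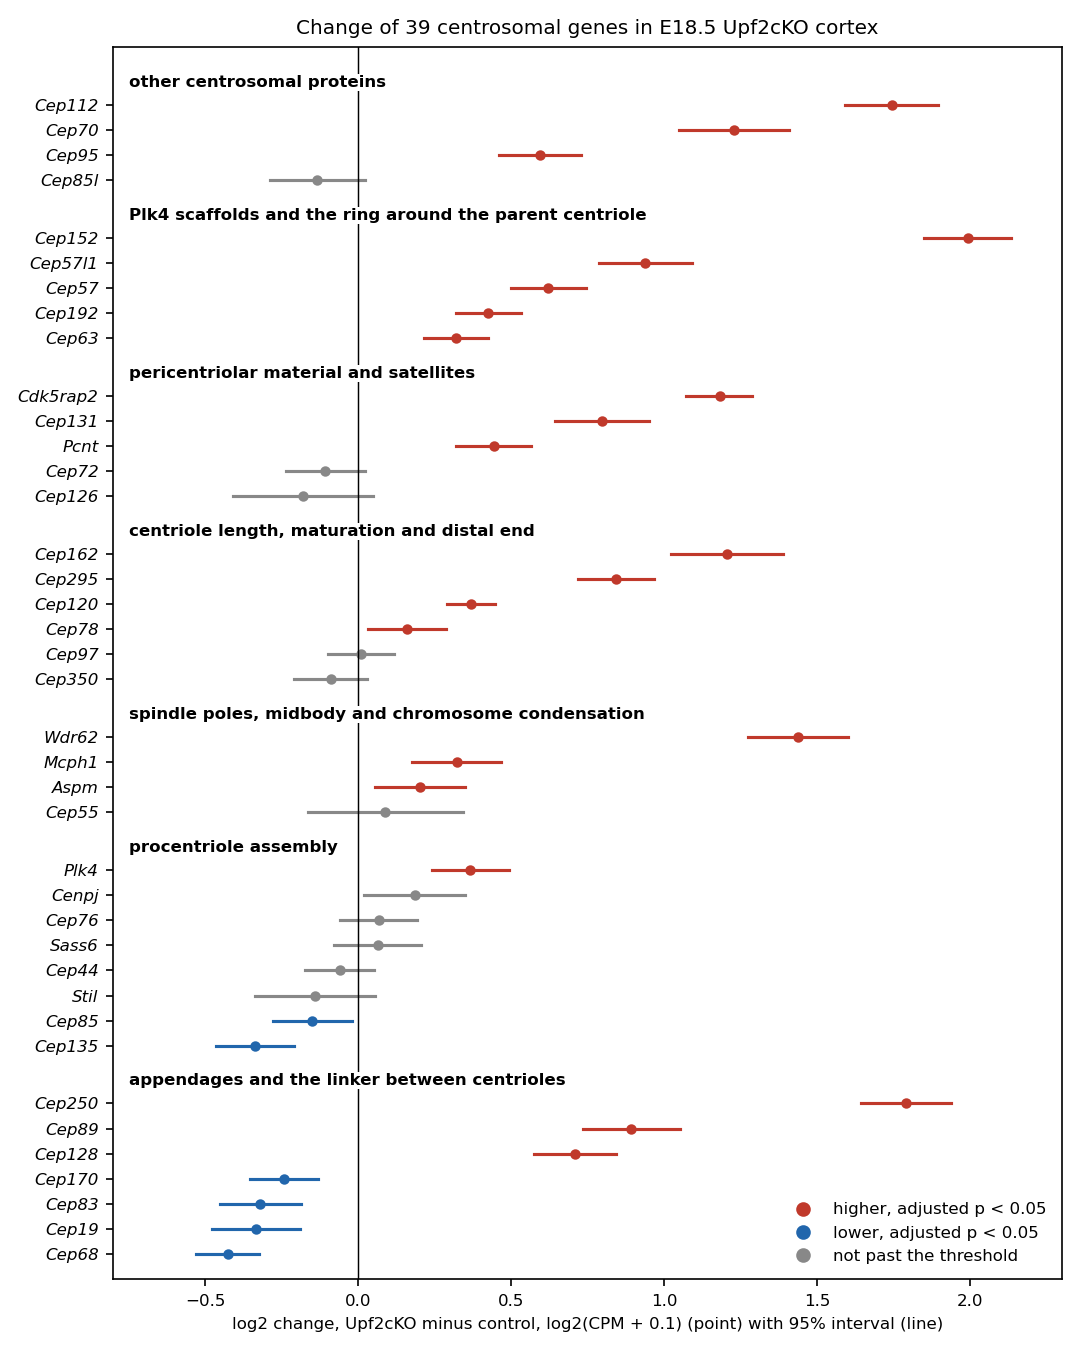
Log2 change of 39 of the 40 genes (x axis, Upf2cKO minus control on the log2(CPM + 0.1) scale; point, estimate; line, 95% interval from limma), grouped by role, with red for higher, blue for lower and grey for not past the threshold. The 5 genes of the Plk4 scaffolds and the ring around the parent centriole all lie to the right of 0, whereas 5 of the 8 procentriole assembly genes are grey.

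Genes of the scaffolds and of the ring around the parent centriole were higher in 5 of 5, where 36.7% of all genes tested were called higher. Cep152, which anchors Plk4 on the parent centriole, had the largest change of the 40 genes. It stood at 9.34, 9.80, 10.5 and 10.9 CPM in controls 1 to 4 and at 37.7, 42.1, 42.8 and 39.9 CPM in Upf2cKO 1 to 4. Every mutant library was more than 3 times the highest control. The means were 10.2 ± 0.715 and 40.6 ± 2.31 CPM (SD, n = 4 each), a 3.98-fold rise (95% interval 3.60 to 4.39, limma adjusted p = 2.52e-09). Cep192, the other scaffold, rose far less, from 35.1 ± 1.98 to 47.1 ± 1.16 CPM (1.34-fold, adjusted p = 2.13e-05). Cep63 and Cep57 form the ring with Cep152, and Cep57l1 is a paralogue of Cep57. Cep63 went from 26.6 ± 0.938 to 33.3 ± 1.22 CPM (1.249-fold) and Cep57 from 36.2 ± 1.19 to 55.9 ± 4.09 CPM (1.54-fold). Cep57l1 had 11.6, 10.6, 10.8 and 11.5 CPM in controls and 19.7, 21.5, 20.8 and 23.9 CPM in Upf2cKO, with no overlap (1.92-fold, adjusted p = 7.35e-07). On the deposited TPM (scaled by gene length as well as by library, so that genes can be set side by side), the ratio of Cep152 to Cep63 was 0.573 to 0.715 in controls and 1.90 to 2.25 in Upf2cKO, a pair chosen after its values were seen.

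Procentriole assembly genes changed little. Of 8, only Plk4 was higher (12.5%) and Cep135 and Cep85 were lower (25.0%), against 36.7% and 26.3% of all genes tested. Plk4, the kinase that starts duplication, had 13.3, 13.3, 14.7 and 13.9 CPM in controls and 17.3, 17.8, 17.3 and 18.9 CPM in Upf2cKO. The 2 groups did not overlap, and the rise was 1.29-fold (95% interval 1.18 to 1.41, limma adjusted p = 2.18e-04). Its partner Stil had 6.87, 7.41, 7.61 and 7.90 CPM in controls and 7.50, 6.14, 6.16 and 7.27 CPM in Upf2cKO, with overlap (log2 change -0.14 ± 0.09 SE, adjusted p = 0.190). Sass6, which forms the hub of the cartwheel, had 10.6, 10.2, 10.5 and 9.76 CPM and 10.8, 9.90, 10.95 and 11.3 CPM (log2 change 0.06 ± 0.06 SE, adjusted p = 0.399). Its 95% interval, 0.948- to 1.153-fold, holds no change of the size seen in Plk4. The tubulin-binding protein Cenpj missed the threshold, at 23.0, 23.5, 26.4 and 22.9 CPM in controls and 25.4, 25.9, 26.5 and 31.3 CPM in Upf2cKO (log2 change 0.18 ± 0.08 SE, adjusted p = 0.0509). It passed without control 3 (adjusted p = 0.0236), without Upf2cKO 1 (0.0274), on TPM (0.0244) and with a filter of 2 CPM (0.0497). Cep135, a cartwheel protein and itself a human microcephaly gene, fell: its values were 16.5, 17.0, 17.5 and 15.8 CPM in controls and 12.8, 13.8, 12.6 and 13.7 CPM in Upf2cKO, with no overlap (1.26-fold lower, adjusted p = 4.50e-04). Cep85, a partner of Stil, had 18.04 ± 1.07 and 16.2 ± 0.533 CPM (1.11-fold lower, adjusted p = 0.0434). It no longer passed when control 1 was left out (adjusted p = 0.106), nor for control 3 (0.115), control 4 (0.0737), Upf2cKO 2 (0.107), Upf2cKO 3 (0.0711), Upf2cKO 4 (0.0712) or control 4 with Upf2cKO 4 (0.110). With no filter the p was 0.0621 and on TPM 0.267. Cep44 and Cep76 did not pass (log2 changes of -0.06 and 0.07). They act in centriole maturation and in limiting re-duplication, and were counted here by a grouping that gives each gene 1 role. By the same grouping Cep152 and Cep192, which hold Plk4, stand with the scaffolds, so the contrast between these groups depends on it. On TPM the log2 change of Cep44 was 0.001 (adjusted p = 0.987). The ratio of Cep152 to Plk4 in TPM, chosen after its values were seen, was 0.835 to 0.933 in controls and 2.51 to 2.94 in Upf2cKO.

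Of the 9 listed microcephaly genes, 6 were higher, 0 lower and 3 did not pass, where 36.7% of all genes tested were higher and 26.3% lower. Wdr62, a spindle pole protein mutated in human microcephaly, had the largest rise among them, from 4.25, 4.48, 4.96 and 4.82 CPM in controls to 12.8, 12.8, 13.4 and 11.8 CPM in Upf2cKO. Each mutant value was more than 2 times the highest control (2.71-fold, 95% interval 2.42 to 3.03, limma adjusted p = 5.41e-08). Cdk5rap2, which recruits and activates the gamma-tubulin ring in the pericentriolar material, was the most abundant of the 9 in CPM and rose from 95.2, 99.6, 104 and 97.0 CPM to 214, 236, 236 and 213 CPM (2.27-fold, adjusted p = 1.11e-08). Pericentrin, encoded by Pcnt, is its anchor, and Pcnt rose less, from 34.3, 36.7, 36.3 and 36.7 CPM to 47.6, 49.8, 53.5 and 45.2 CPM (1.36-fold, adjusted p = 4.52e-05). Neither gene overlapped between groups. The TPM ratio of Cdk5rap2 to Pcnt, also chosen after its values were seen, was 2.47 to 2.68 in controls and 4.11 to 4.43 in Upf2cKO. Mcph1, a regulator of chromosome condensation, had 15.1, 14.8, 16.4 and 15.2 CPM in controls and 19.4, 21.3, 18.2 and 18.1 CPM in Upf2cKO (log2 change 0.32, adjusted p = 0.00147). Aspm, which works with Wdr62 at spindle poles, had 26.4, 27.7, 29.4 and 29.2 CPM in controls and 32.4, 28.7, 34.8 and 34.1 CPM in Upf2cKO, where mutant 2 lay within the control range (1.151-fold, adjusted p = 0.0205). Aspm no longer passed when a single library was left out, whether control 1 (adjusted p = 0.0570), control 2 (0.0512), Upf2cKO 3 (0.0652) or Upf2cKO 4 (0.0542). The same held for median-of-ratios rescaling (0.0752) and for leaving out control 4 with Upf2cKO 4 (0.0666).

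**Figure D2:**
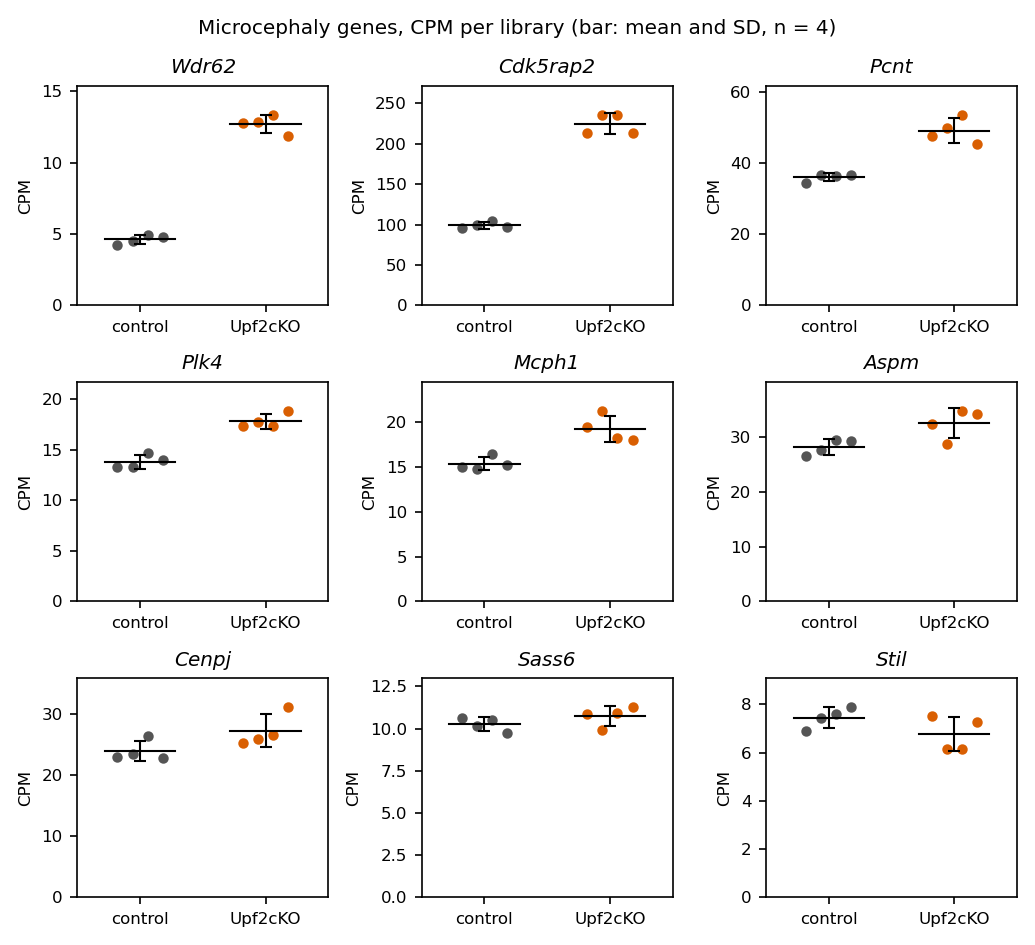
CPM (y axis, from 0) of the 9 listed microcephaly genes in each library, grey for the 4 controls and orange for the 4 Upf2cKO libraries, with the mean and SD as bars. The groups are apart for Wdr62, Cdk5rap2, Pcnt, Plk4 and Mcph1 and overlap for Aspm, Cenpj, Sass6 and Stil.

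The rise of Wdr62, and the smaller one of Aspm that was lost under some settings, went with lower values of genes of dividing cells. The 8 cycling markers, among them Mki67, Top2a and Pcna, summed to 409 to 462 CPM in controls and 280 to 326 CPM in Upf2cKO, and none of them was at 0. Of the 10 radial glia markers the sum was 1323 to 1382 CPM in controls and 885 to 1045 CPM in Upf2cKO. Mki67 had 91.3, 95.5, 109 and 99.5 CPM in controls and 69.9, 62.5, 72.0 and 72.1 CPM in Upf2cKO (limma adjusted p = 3.90e-05). The part of these markers in the values of the centrosomal genes was not tested. Cep55, which recruits the abscission machinery to the midbody at the end of mitosis, had 6.70, 6.78, 9.31 and 7.24 CPM in controls and 7.76, 6.97, 8.66 and 8.40 CPM in Upf2cKO, and did not pass (adjusted p = 0.515). Of 14 other spindle pole genes and mitotic kinases, 4 were higher (28.6%) and 5 lower (35.7%), against 36.7% and 26.3% of all genes tested. Their median log2 change was -0.12. The spindle motor Kif11 was lower, at 27.6 ± 2.84 CPM in Upf2cKO against 37.2 ± 2.87 CPM in controls (adjusted p = 8.04e-04). Tpx2, an activator of Aurora A, went from 37.6 ± 1.58 to 29.1 ± 3.60 CPM.

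Appendage and linker genes were split. All 7 were called, 3 higher and 4 lower, where 63.0% of all genes tested were called, 36.7% as higher and 26.3% as lower. Cep250 encodes C-Nap1, the anchor of the fibrous linker that holds the centrioles of a pair together until mitosis. It had 49.0, 53.2, 51.1 and 50.6 CPM in controls and 164, 195, 190 and 159 CPM in Upf2cKO, with the lowest mutant library 3 times the highest control (3.46-fold, 95% interval 3.12 to 3.83, limma adjusted p = 5.54e-09). Cep68, which extends the same linker, went the other way and had the largest fall of the 40 genes. Its values were 63.8, 60.7, 60.3 and 59.0 CPM in controls and 46.1, 42.2, 46.6 and 46.7 CPM in Upf2cKO (1.34-fold lower, adjusted p = 1.62e-05). The ratio of Cep250 to Cep68 in TPM, chosen after its values were seen, was 0.434 to 0.495 in controls and 1.93 to 2.61 in Upf2cKO. Among distal appendage proteins, which dock the older centriole at the membrane, Cep89 rose from 24.1 ± 2.25 to 44.7 ± 2.55 CPM (1.86-fold, adjusted p = 1.52e-06) whereas Cep83, the root of the same structure, was at 23.6 ± 1.24 CPM in Upf2cKO against 29.4 ± 1.91 CPM in controls (1.247-fold lower, adjusted p = 8.65e-04). Cep128, of the subdistal appendages, rose from 10.7 ± 0.284 to 17.6 ± 1.096 CPM (1.63-fold). Cep170, also subdistal and the most abundant of the 40 genes, had 646, 644, 679 and 619 CPM in controls and 504, 566, 546 and 574 CPM in Upf2cKO (1.18-fold lower, adjusted p = 0.00160). Cep19, which takes part in starting ciliary transport, fell from 28.7 ± 1.04 to 22.8 ± 1.98 CPM (1.26-fold lower).

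**Figure D3:**
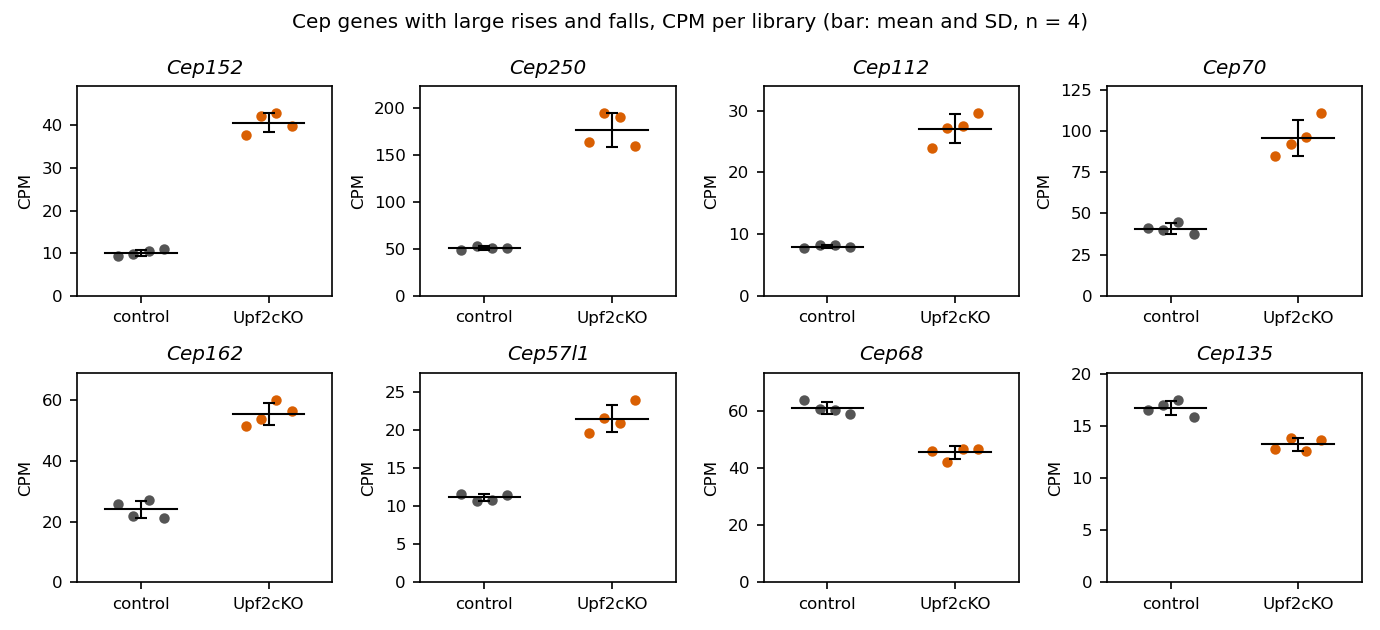
CPM (y axis, from 0) in each library of the 6 Cep genes with the largest rises and the 2 with the largest falls, grey for controls and orange for Upf2cKO, with mean and SD (n = 4) as bars. No gene shown has a control value within the range of its Upf2cKO values.

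Genes of centriole length, maturation and the distal end were higher in 5 of 7 and lower in none, against 36.7% and 26.3% of all genes tested. Cep162, which caps the distal end and helps to set up the ciliary base, had 25.8, 22.0, 27.0 and 21.3 CPM in controls and 51.5, 53.6, 59.96 and 56.4 CPM in Upf2cKO, with no overlap (2.31-fold, 95% interval 2.03 to 2.61, limma adjusted p = 4.34e-07). Cep295, needed for a new centriole to become a centrosome, rose from 53.8 ± 1.61 to 96.7 ± 7.38 CPM (1.79-fold). Cep120, a partner of Cenpj in lengthening, rose from 88.2 ± 2.77 to 114 ± 1.58 CPM (1.29-fold). Cep97, which caps the centriole together with Ccp110, had 49.96 ± 1.93 and 50.3 ± 2.49 CPM, with a 95% interval of 0.935- to 1.08-fold. Its log2 change was 0.01 and turned to -0.05 after median-of-ratios rescaling, and to -0.013, -0.003 and -0.011 without control 2, Upf2cKO 3 and Upf2cKO 4, in that order. Ccp110 itself was lower in Upf2cKO, at 92.2 ± 3.31 against 113 ± 3.74 CPM (adjusted p = 1.09e-04). Cep78 had 26.6, 29.1, 29.2 and 26.5 CPM in controls and 28.6, 32.5, 31.8 and 31.7 CPM in Upf2cKO (1.12-fold, adjusted p = 0.0324). It did not pass when control 1 (adjusted p = 0.0819), control 4 (0.0911), Upf2cKO 2 (0.0851), Upf2cKO 3 (0.0797), Upf2cKO 4 (0.0667) or both libraries numbered 4 (0.151) were left out. With no filter the p was 0.0541, and after median-of-ratios rescaling 0.171. Cep350, the largest of these proteins, did not pass (92.7 ± 4.77 and 87.1 ± 5.41 CPM) and passed as lower after that rescaling (log2 change -0.15, adjusted p = 0.0482). That was 1 of 17 alternatives, and in another its adjusted p was 0.729.

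Of 5 genes of the pericentriolar material and satellites 3 were higher and 0 lower, and of the 4 remaining centrosomal proteins likewise 3 and 0. The shares of all genes tested were 36.7% higher and 26.3% lower. Cep131, a core protein of the satellites that shuttle around the centrosome, rose from 40.6 ± 1.71 to 70.8 ± 7.21 CPM (1.74-fold, limma adjusted p = 2.73e-06). Cep126 and Cep72, which help to organise microtubules at the centrosome, did not pass. Cep72 had 10.1, 10.97, 10.3 and 9.82 CPM in controls and 9.56, 9.60, 9.38 and 9.63 CPM in Upf2cKO, so the groups were apart by a narrow margin (1.08-fold lower, adjusted p = 0.139), and it passed after median-of-ratios rescaling (0.0367). Cep126 had 8.46 ± 0.854 and 7.47 ± 0.952 CPM and passed as lower without Upf2cKO 4 (adjusted p = 0.0294). The coiled-coil protein Cep112 rose from 7.72, 8.19, 8.23 and 7.87 CPM to 24.0, 27.2, 27.6 and 29.6 CPM (3.35-fold, adjusted p = 7.94e-09). Cep70, which binds gamma-tubulin, rose from 41.0, 39.96, 45.1 and 37.3 CPM to 84.7, 92.3, 96.3 and 111 CPM (2.34-fold, adjusted p = 3.69e-07). Both were well apart from their controls in all 4 mutant libraries. Cep95 went from 23.3 ± 1.56 to 35.2 ± 2.02 CPM (1.51-fold). Cep85l, mutated in a human disorder of neuronal migration, had 47.8, 47.4, 52.6 and 43.7 CPM in controls and 40.5, 41.9, 43.3 and 48.9 CPM in Upf2cKO (adjusted p = 0.120), and passed as lower without Upf2cKO 4 (0.0248), without control 4 and Upf2cKO 4 (0.00866) and after median-of-ratios rescaling (0.0390).

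Per length, the order of the genes was rearranged in the mutant. In controls Cep170 stood first at 142 TPM, followed by Cep19 (64.9 TPM), Cep120 (50.9), Cep131 (41.9) and Cep68 (41.2). Cep131 and Cep68 overlapped in range, as did most neighbours: of 39 neighbouring pairs in the control order, the ranges were apart in 7. Wdr62 (3.19 TPM) and Cep128 (3.01 TPM) came last. Cep250 moved from place 16 (19.5 TPM) to place 5 (70.5 TPM), Cep152 from 33 (6.97 TPM) to 14 (29.1 TPM) and Cep112 from 36 (5.14 TPM) to 21 (18.1 TPM). In the other direction Cep83 moved from 18 to 27 and Cep68 from 5 to 13. The summed level of the 40 genes was 823 to 899 TPM in the control libraries and 1104 to 1207 TPM in the Upf2cKO libraries.

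**Figure D4:**
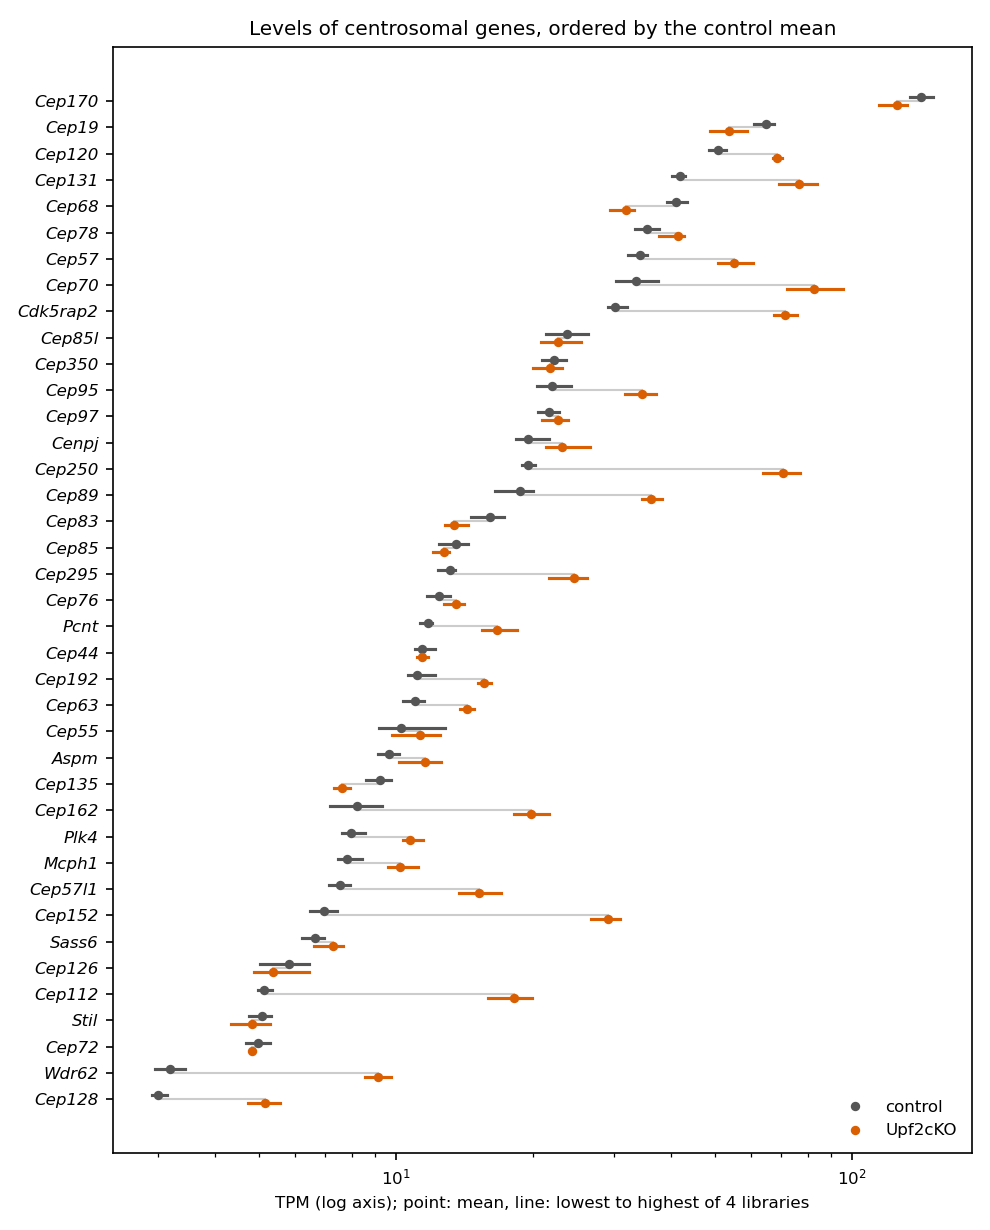
TPM of 39 of the 40 genes (log x axis; point, mean; line, lowest to highest of 4 libraries), ordered by the control mean, with grey for control and orange for Upf2cKO. Cep250, Cep152 and Cep112 move farthest to the right, from 19.5 to 70.5, from 6.97 to 29.1 and from 5.14 to 18.1 TPM.

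The deposited value of a gene sums reads over all its annotated exons, so a change cannot be assigned to one transcript. An NMD transcript is annotated for 19 of the 40 genes, of which 14 were higher and 2 lower (median log2 change 0.38). Of the 21 without one, 9 were higher and 4 lower (median 0.09). The same counts over protein-coding genes were 47.9% higher and 21.3% lower of 3884 genes with an NMD transcript, and 31.7% higher and 31.2% lower of 10146 without. Among the 7 genes that rose at least 2-fold, Cep152, Cep112 and Cep162 carry no annotated NMD transcript, and for Cep152 the annotation lists a single transcript. Exon number varied with the change as well. For the transcript with the longest coding sequence, Spearman's rho between exon number and log2 change was 0.57 over the 40 genes and 0.26 over 14019 protein-coding genes, as a description across genes that share the same 8 libraries. With total exon length rho was 0.06 over the 40 genes and 0.065 over 14030 protein-coding genes. With the number of annotated transcripts it was 0.36 and 0.14. Of 21 genes with at least 18 exons, the median of the 40, 17 were higher and 2 lower, and of 19 with fewer exons 6 were higher and 4 lower. Over protein-coding genes the shares were 54.4% higher and 15.4% lower of 2754 with at least 18 exons, and 31.7% higher and 31.7% lower of 11265 with fewer. Exon number was looked at after the values had been seen. Cep135 and Cep350, with 26 and 38 exons, did not rise.

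**Figure D5:**
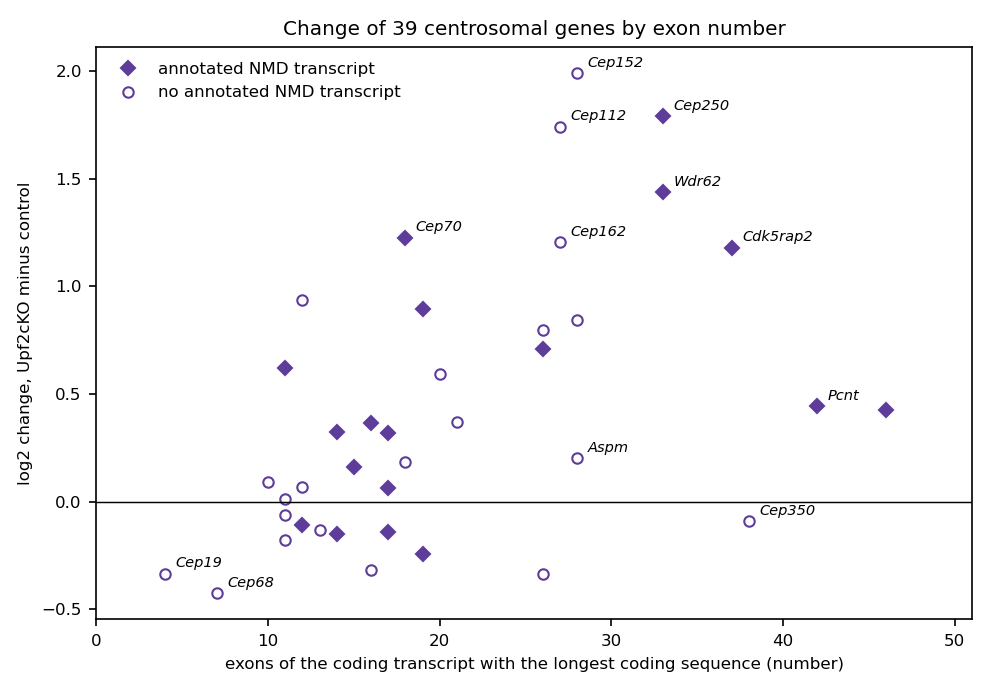
Log2 change (y axis, Upf2cKO minus control) of 39 of the 40 genes against the exon number of the transcript with the longest coding sequence (x axis), with filled diamonds for genes that have an annotated NMD transcript and open circles for those without. The 7 genes at or above a log2 change of 1.18 have 18 or more exons, while Cep19 and Cep68, with 4 and 7 exons, lie below 0.

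Some values are uncertain because exons are shared with a neighbour, which holds for 15 of the 40 genes, and the sources used here name no rule for such reads. Most of these neighbours were near 0. Cep295 overlaps Taf1d on the other strand, which rose from 48.5 ± 3.23 to 114 ± 10.4 CPM. Sass6 overlaps Trmt13, which rose from 15.7 ± 1.21 to 39.5 ± 1.45 CPM on the other strand, and Cep70 overlaps 4930422M22Rik, which had 3.65 ± 0.422 and 6.45 ± 0.444 CPM. Anapc13, on the other strand of Cep63, had 16.9 and 16.5 CPM. For the strongest rises, Cep250 shares exon sequence with 6430550D23Rik, at 1.55 and 2.00 CPM on the other strand, Wdr62 with Thap8, at 0.190 and 0.790 CPM, and Cep152 with none. Reads of the paralogues Cep57 and Cep57l1, and of Cep85 and Cep85l, could also have been divided between them. Fopnl and Fgfr1op, which RefSeq names Cep20 and Cep43, do not match the rule under their GENCODE symbols and had 39.6 and 41.1 CPM, and 21.4 and 21.6 CPM, in controls and Upf2cKO (adjusted p of 0.373 and 0.857).

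Promoter sequence is shown for 3 of the strongest rises and for the largest fall, since these genes moved apart in the same tissue. The windows run from 250 bases before to 50 bases after the gene start on the strand of the gene (RefSeq, GRCm38.p6), at chr2:125625064-125625363 on the minus strand for Cep152, chr2:155956308-155956607 on the plus strand for Cep250, chr7:30280372-30280671 on the minus strand for Wdr62 and chr11:20249375-20249674 on the minus strand for Cep68. Capitals mark matches, on either strand, to the CHR element of cell cycle genes (TTTGAA or TTCGAA), an E2F element (TTTGGCGC, TTTCCCGC, TTTCGCGC or TTTGCCGC), the core of the NRF1 site (CGCATGCG), the left part of the RFX X-box (GTTGCCA) and the CCAAT box (CCAAT).
Cep152: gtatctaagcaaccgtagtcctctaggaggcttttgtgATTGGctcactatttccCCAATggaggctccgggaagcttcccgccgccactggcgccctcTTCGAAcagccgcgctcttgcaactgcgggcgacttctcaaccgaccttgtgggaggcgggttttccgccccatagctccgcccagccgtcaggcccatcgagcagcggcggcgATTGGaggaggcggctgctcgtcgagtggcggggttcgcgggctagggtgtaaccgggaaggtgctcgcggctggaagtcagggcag
Cep250: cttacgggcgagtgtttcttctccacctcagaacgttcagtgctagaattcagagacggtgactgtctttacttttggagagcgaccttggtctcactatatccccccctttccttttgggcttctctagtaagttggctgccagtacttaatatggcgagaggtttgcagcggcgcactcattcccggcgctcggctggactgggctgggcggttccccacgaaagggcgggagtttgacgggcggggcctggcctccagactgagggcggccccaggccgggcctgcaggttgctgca
Wdr62: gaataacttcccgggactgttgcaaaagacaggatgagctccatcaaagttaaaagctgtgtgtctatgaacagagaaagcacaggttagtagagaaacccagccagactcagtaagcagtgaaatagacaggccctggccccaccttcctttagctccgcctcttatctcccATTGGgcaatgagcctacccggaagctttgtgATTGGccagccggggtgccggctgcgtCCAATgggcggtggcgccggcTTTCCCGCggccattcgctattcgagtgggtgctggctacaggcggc
Cep68: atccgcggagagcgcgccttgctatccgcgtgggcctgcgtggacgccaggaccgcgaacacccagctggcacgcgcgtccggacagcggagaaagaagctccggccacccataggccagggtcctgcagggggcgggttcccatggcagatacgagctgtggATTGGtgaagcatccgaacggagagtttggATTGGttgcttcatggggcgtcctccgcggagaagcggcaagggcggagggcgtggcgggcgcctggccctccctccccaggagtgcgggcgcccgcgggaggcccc

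The Cep152 window held a CHR match that begins at position -151 from the gene start and 3 CCAAT matches, that of Wdr62 an E2F match at position 3 and 3 CCAAT matches, that of Cep68 2 CCAAT matches, and that of Cep250 none of the 5 motifs. Chromosome 18, which holds Cep120, Cep192 and Cep76, was left out of the search and of the counts. On the other chromosomes windows were found for 34 of the 40 genes, 42 windows in all. The CHR element was present in 14 of these (33.3%), against 19.2% of 32851 windows of all genes outside chromosome 18. An E2F element was in 4 (9.52%, against 2.26%), the NRF1 core in 3 (7.14%, against 1.87%), the X-box part in 2 (4.76%, against 4.38%) and the CCAAT box in 18 (42.9%, against 37.4%). All 4 windows with an E2F element, those of Cep128, Cep63 and Wdr62 with its 2 overlapping windows, belong to genes that were higher. So do 24 of the 42 windows, and a link between the element and the change was not tested. A match is a description of letters and says nothing about binding.

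Other genes were taken from lists of centrosomal roles, of further microcephaly genes and of the p53 response to centriole loss. Of 105 such genes, all tested, 48 were higher (45.7%) and 25 lower (23.8%), with a median log2 change of 0.08, where 36.7% and 26.3% of all genes tested were called. On TPM the split was 51 higher and 15 lower, and without control 3 it was 46 higher and 16 lower. Genes of appendages and linker were higher in 9 and lower in 2 of 12, with Fbf1, a distal appendage protein, rising from 133 ± 5.95 to 332 ± 27.8 CPM (2.49-fold, limma adjusted p = 2.23e-08), Lrrc45, of the linker, from 57.3 ± 2.58 to 128 ± 11.8 CPM and Cntrl, centriolin, from 34.6 ± 0.604 to 53.3 ± 1.98 CPM. In the pericentriolar material, the gamma-tubulin ring and augmin, 11 of 19 were higher and 4 lower. Tubg2, a gamma-tubulin, rose from 19.9 ± 1.16 to 43.9 ± 2.46 CPM, Tubgcp2 from 68.4 ± 3.05 to 114 ± 5.28 CPM and the augmin subunit Haus8 from 21.8 ± 1.90 to 37.5 ± 1.52 CPM. Of 14 centriole assembly partners 5 were higher (35.7%) and 3 lower (21.4%), shares near those of all genes tested. The centrins Cetn2 (36.2 ± 3.78 to 21.1 ± 2.84 CPM) and Cetn3 (125 ± 6.93 to 86.9 ± 7.24 CPM) were lower, as was Ccp110. Those higher included Sfi1 (32.5 ± 2.32 to 70.5 ± 6.42 CPM), Rttn, a human microcephaly gene (11.9 ± 0.910 to 22.2 ± 0.482 CPM) and Cntrob (46.5 ± 1.76 to 78.1 ± 5.09 CPM). Satellite genes were higher in 4 and lower in 1 of 10, with Bbs4 at 32.0 ± 1.504 and 52.2 ± 0.742 CPM, Ofd1 at 18.1 ± 1.14 and 38.6 ± 4.13 CPM and Pcm1 at 221 ± 11.4 and 277 ± 18.1 CPM. Other microcephaly genes were higher in 14 and lower in 10 of 30, with a median log2 change of 0.03. The 14 higher include the DNA damage kinase Atr (36.7 ± 1.45 to 79.2 ± 4.41 CPM) and Zfp335 (26.0 ± 1.29 to 61.4 ± 5.49 CPM). Nin and Tubgcp6 stand on 2 of these lists each and are counted once in the total.

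In cells that lose or gain centrioles, a surveillance pathway of Usp28 and Trp53bp1 or of Pidd1 can activate p53. Of its 8 genes 3 were higher (37.5%, against 36.7% of all genes tested) and 0 lower. Trp53bp1 rose from 264 ± 7.39 to 331 ± 13.3 CPM (1.26-fold, limma adjusted p = 4.24e-05), Pidd1 from 7.24 ± 0.888 to 13.4 ± 0.515 CPM (1.84-fold) and the p53 target Cdkn1a from 6.38 ± 0.675 to 15.9 ± 1.08 CPM (2.48-fold). Trp53, which encodes p53, had 62.4 ± 3.84 and 64.3 ± 2.87 CPM (adjusted p = 0.492), and Mdm2, its target and inhibitor, 57.5 ± 3.07 and 55.2 ± 3.91 CPM (adjusted p = 0.386). Usp28 had 44.0 ± 1.69 and 46.5 ± 1.01 CPM (adjusted p = 0.122), and Trim37, which limits the assembly of pericentriolar material without centrioles, 223 ± 3.58 and 217 ± 7.01 CPM (adjusted p = 0.381). Multiciliated cells make many centrioles with the same genes. Of 9 marker genes of these cells and of the choroid plexus, 3 were tested and 1 was higher, and their sum was 11.2 to 132 CPM in controls and 13.7 to 282 CPM in Upf2cKO. The one higher was Foxj1, a master regulator of motile cilia, with 7.63, 8.17, 5.69 and 6.46 CPM in controls and 11.3, 10.7, 11.3 and 10.5 CPM in Upf2cKO, without overlap (1.57-fold, adjusted p = 3.17e-04). Its part in the values of the centriole genes was not tested. Ccno, Mcidas and Deup1, which drive centriole amplification, were at 0.70 CPM or less in every library and were not tested, while Ttr, of the choroid plexus, reached 119 CPM in control 4 and 258 CPM in Upf2cKO 4, against 1.2 to 28.5 CPM in the other 6. Without those 2 libraries 21 of the 40 genes were higher and 6 lower. With all libraries kept, 36.7% of all genes tested were higher and 26.3% lower.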

How the data were processed

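RNA from cortex at E18.5 was sequenced in 4 control and 4 Upf2cKO libraries. Per the labels' protocols the kit is named both for total RNA and for mRNA. The submitters' processing notes list mm10, STAR 2.7.11a, fastp 0.23.4, MultiQC 1.25, Picard 3.1.1 and DESeq2, without their roles. For the counter, its strand setting and its annotation, the sources used here give nothing. What the authors deposited is a CPM table and a TPM table, rounded to 2 decimals. For 97.9% of 7485 well-covered genes the deposited TPM equals CPM over the union of exon lengths in GENCODE M21 (mm10), within 0.01 on the log2 scale and a factor per library, which fixes the gene length across libraries. M21 gave a symbol to 55227 of 55487 identifiers and was the source of coordinates, transcripts and exon numbers.

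The test was limma 3.58.1 under R 4.3.3, two-sided and with an intensity trend, on log2(CPM + 0.1) of genes reaching 0.5 CPM in 4 or more libraries, with Benjamini-Hochberg adjustment over all genes kept (threshold 0.05). The minimum stands for 48 to 78 reads. Depth was estimated from values of short genes, of which 99.7% to 100.0% came out as whole reads within 0.15. The rounding step of the CPM table is about the size of a read, which kept whole reads of most genes out of reach, and no count test was run. The fit and the depth estimate were checked on simulated data. Limits from the sampling of reads cover counting error only.

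The members and lists were chosen with earlier results of these data known. For the grouping by role each member was given 1 role, although some act in more than 1 step. Genes named by rule are the 9 listed ones, Cep genes past the threshold without overlap between groups (up to 12 rises and 8 falls), the 3 most abundant Cep genes with overlap, and up to 3 genes from each list with the smallest adjusted p. The other members, Ccp110, Cetn2, Cetn3, Usp28, Trim37, Trp53, Mdm2, the marker genes and the overlapping neighbours were named after their values were seen. Ccdc102b found no match in the annotation and was left out of its list. Single values of 1 member and of some genes on the lists are not reported here, although they entered the counts. Replicate numbers of the labels were not used to pair libraries.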

Additional observations from a re-analysis of the deposited data

Results flagged for a closer look

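Of 78 groups of 4 values (39 genes in 2 groups), 6 held a library set far apart from the other 3, where chance alone flags about 1 in 20 groups. Control 3 was the highest control for Cenpj (26.4 CPM) and for Cep192 (38.0 CPM). Control 1 was the lowest control for Pcnt (34.3 CPM). In Upf2cKO, library 4 was the highest for Cep126 (8.89 CPM), library 1 the lowest for Cep295 (85.7 CPM) and library 2 the lowest for Cep68 (42.2 CPM). The calls of Cep192, Pcnt, Cep295 and Cep68 held without the library in question, Cenpj passed without control 3, and Cep126 passed as lower without Upf2cKO 4.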

How the results depend on the processing

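The counts of the 40 genes stayed within 1.5 times, at 21 to 24 higher and 5 to 9 lower, over 17 alternatives (another pseudocount, filter, unit, scaling or variance trend, the replicate block, and libraries left out). With 1 library left out the ranges were 21 to 24 higher and 5 to 7 lower, 16 to 17 and 5 to 7 for the Cep genes, 5 to 7 higher and 0 lower for the listed genes, and 46 to 48 higher and 16 to 25 lower for the 105 genes of the other lists. On TPM 15 of those 105 were lower. With 1 library left out, 5263 to 5933 of all genes tested were higher and 3864 to 4635 lower. In the main fit these numbers were 6082 and 4359 of 16573. The median log2 change of all genes tested went from 0.04 to -0.01 with median-of-ratios rescaling and to 0.10 on TPM, and that of the 40 genes from 0.32 to 0.27 and 0.38.

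Signs changed for Cep44, with a log2 change of 0.001 on TPM, and for Cep97, with -0.046 after median-of-ratios rescaling, a range of -0.013 to 0.044 with 1 library left out (0.044 without Upf2cKO 1), -0.013 without control 2, -0.003 without Upf2cKO 3, -0.011 without Upf2cKO 4 and -0.001 without control 4 and Upf2cKO 4. None of these values passed the test, and the cause was not tested. Of the 11 genes that did not pass, 5 did so under some alternative. Cenpj passed under 4 of 17, Cep85l under 3, and Cep72, Cep126 and Cep350 under 1 each. In the same order their limma adjusted p reached 0.2425, 0.459, 0.622, 0.396 and 0.729 under other alternatives. Same-numbered libraries deviated from their group means with correlations of 0.423, 0.0519, 0.523 and 0.186. Differently numbered libraries had -0.451 to 0.328, with the highest for control 2 and Upf2cKO 3. These values do not exclude pairing. The numbers were not taken as pairs because the labels do not say what a number marks. With the replicate block 23 of the 40 genes were higher and 6 lower, 17 and 6 of the Cep genes, and 48 and 22 of the 105 genes of the other lists. In the main fit, without the block, 36.7% of all genes tested were higher and 26.3% lower. Libraries left out lower the number of samples. Each of the 40 genes stood for about 433 reads or more in every library. The spread between libraries was not set against the counting error of each gene. For genes of very small spread, such as Cep72 in Upf2cKO (SD 0.112 CPM, about 923 to 1343 reads), it may understate that error.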
